A study of Saccharomyces cerevisiae with 64 samples.

Results

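The comparison described here asks which transcripts differed when RIM4 was overexpressed together with IME1, rather than IME1 alone, in kfc1 yeast after 12 h in sporulation conditions. It is the difference between 2 columns of the authors' table, taken for every gene, and 6514 of the 6660 genes listed had a value in both. The 2 columns stand for 4 of the 64 samples of the series. Polyadenylated RNA of Saccharomyces cerevisiae strain S288c was sequenced, and each of 32 groups had 2 replicates. A group was a genotype, an overexpression arm and a time. The 4 groups used most were kfc1 with PzevIME1, kfc1 with PzevIME1 and PzevRIM4, and wild type with the same constructs, all at 12 h. The arm with IME1 alone was sampled at 0, 2, 4, 6, 8 and 12 h. The arm with both was sampled at 0, 12, 24 and 48 h, so only 0 h and 12 h were shared.

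All 4 groups carried IME1 under the zev promoter, which answers to an artificial estradiol-controlled transcription factor, so IME1 overexpression was common to both sides of each difference. The labels write the mutant genotype as kfc1 --, and say neither how it was made nor whether the overexpression arms came from separate clones. The labels mark the wild-type samples with IME1 alone as re-used, each with a pointer to another sample record, and not those with IME1 and RIM4. In wild type the RIM4 difference and that re-use cannot be told apart. Neither kfc1 arm carried the mark. The wild-type samples without overexpression did, those at 0 h included. In kfc1, RIM4 overexpression and any other difference between the arms cannot be told apart either.

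The authors had combined the replicates into 1 log2 ratio per gene and group, relative to wild type without overexpression at 0 h. That ratio is called the level below, and a difference is the level with IME1 and RIM4 minus the level with IME1. No replicate spread, test or p-value can be given, and the depth behind each value is unknown. Genes are called higher or lower where the difference reached 1 log2 unit, a 2-fold difference, and this is a rule of size only. In whole cultures, fewer cells carrying a transcript and less transcript per cell cannot be told apart.

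In yeast meiosis, Ime1 switches on the early genes for DNA replication and recombination. The kinase Ime2 and the transcription factor Ndt80 then take cells into the meiotic divisions and spore formation. Ndt80 binds the middle sporulation element in front of its target genes. Rim4 is an RNA-binding protein needed for meiosis that holds back translation of some middle and late messages, such as that of the cyclin gene CLB3, until it is cleared. According to the literature the kfc1 gene is VIR1 (YGL036W). Its product belongs to the complex that adds N6-methyladenosine to messenger RNA during meiosis.

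RIM4 itself, on chromosome VIII from 56649 to 58790 (R64), stood at 2.62 in kfc1 with IME1 at 12 h and at 4.36 with RIM4 added. The difference was 1.74 at 12 h and -0.32 at 0 h. With both genes overexpressed the RIM4 level was -0.30 at 0 h, 3.82 at 24 h and 3.76 at 48 h. RIM4 was thus above its starting level in kfc1 with IME1 alone as well, at 2.91 by 8 h. Wild type differed less at 12 h, from 3.72 with IME1 to 4.23 with both, a difference of 0.51. Which copy of RIM4 the reads came from cannot be told from these values.

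VIR1, on chromosome VII from 428601 to 431330, was at -7.04 and -9.24 in the same kfc1 columns, against 1.67 and 2.07 in wild type. Its difference of -2.20 in kfc1 lies between 2 very low ratios and is not read as regulation. The marker gene URA3 had levels of 8.25 and 9.19 in kfc1, a difference of 0.94. In wild type URA3 was at 7.50 with IME1 and blank with both. LEU2 had no value in either kfc1 column, and in wild type it was at 7.30 with IME1 and blank with both. Wild type thus had values for URA3 and LEU2 only in the arm with IME1 alone. In kfc1 URA3 had values in both arms and LEU2 in neither.

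A feature of the arm with RIM4 has to be set out before the gene lists. Genes whose sequence occurs elsewhere in the genome had low levels in all 8 columns of that arm. A gene was called repeated when at least 50% of its 50-base stretches were found again in the R64 assembly, and single-copy when fewer than 10% were. The median level of the repeated genes ran from -1.70 to -0.93 over the 8 columns with IME1 and RIM4. It ran from -0.24 to 0.27 over the 23 other columns. The 2 ranges do not overlap, and the RIM4 columns are low in both genotypes and at every time, 0 h included. In kfc1 at 0 h the median was -1.20 with both genes and -0.10 with IME1. Whether the reads of the arm with RIM4 were handled in another way is not given in the sources used.

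**Figure D1:**
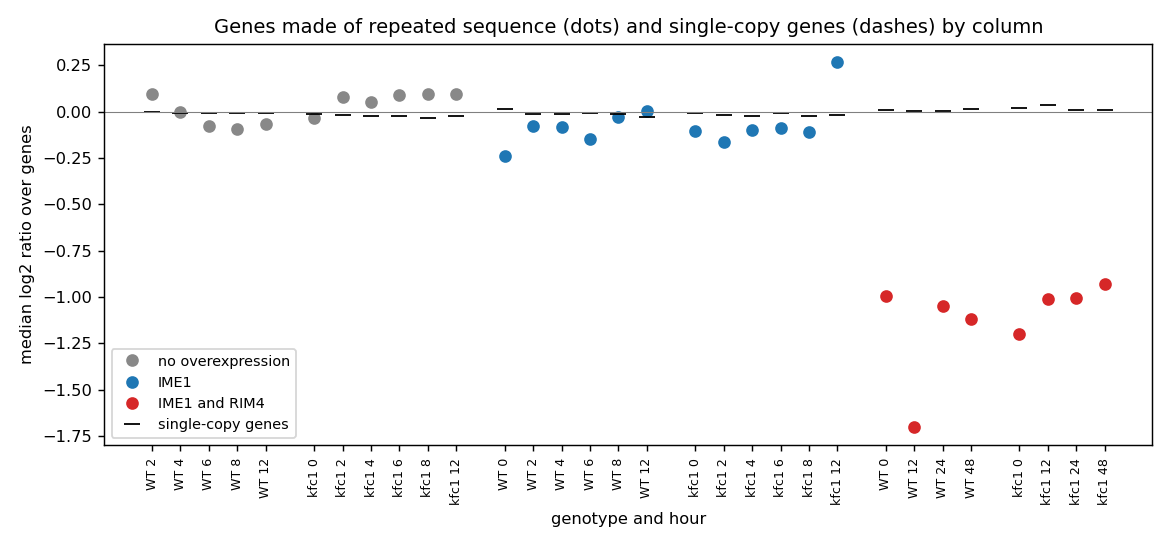
Median log2 ratio over repeated genes (dots) and over single-copy genes (dashes) in each of 31 columns, ordered by overexpression arm, genotype and hour. The 8 columns with IME1 and RIM4 lie between -1.70 and -0.93 for repeated genes, all the others between -0.24 and 0.27, and the medians of single-copy genes stay near 0.

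In kfc1 at 12 h, 134 genes (2.06%) were higher with RIM4 and 177 (2.72%) were lower. Of the 174 repeated genes with a value, 112 (64.4%) were lower and 1 was higher, with a median difference of -1.43. Of the 5611 single-copy genes, 100 (1.78%) were higher and 32 (0.57%) were lower, with a median of 0.02 and an SD over genes of 0.40. The remaining calls were in genes with an intermediate share of repeated sequence (2 higher, 12 lower of 109) and in identifiers outside the RefSeq annotation (31 higher, 21 lower of 620). At 0 h the repeated genes had a median difference of -1.11 already, with 92 of 169 lower (54.4%). Taking the 12 h difference less the 0 h difference left their median at -0.20, and over all 6500 genes with those values 271 (4.17%) were then higher and 141 (2.17%) lower. What part the repeats play in the lower calls beyond these values was not tested, and the counts below are given with single-copy genes named apart.

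The genes with the lowest differences carry this feature. Of the 12 lowest in the RefSeq annotation, 11 were repeated. They included YLR256W-A at -3.78, YPR203W at -3.39 and YOR192C-B at -3.20, each with 97.2% or more of its sequence found elsewhere. Some duplicated housekeeping genes behaved alike. The translation elongation factor genes TEF1 and TEF2, each 92.5% repeated, had differences of -2.28 and -2.26. The ribosomal protein genes RPL1A and RPL1B, 81.0% repeated, had -2.29 and -2.31. Among the 137 cytosolic ribosomal protein genes 14 were lower, and 0 of these 14 were single-copy. The same holds for the thiamine list, where the 8 lower of 19 were all repeated members such as SNO2 at -2.42 and SNZ2 at -2.28, and for the heat shock genes HSP32 (-2.01) and HSP33 (-1.62).

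Differences also leaned with gene length among single-copy genes. In kfc1 at 12 h the median difference was -0.20 for genes up to 300 bases and -0.17 for 300 to 600 bases. It was 0.15 for 1500 to 2500 bases and 0.10 for longer genes. At 0 h the medians of the same classes stayed between -0.04 and 0.05. These shifts are well under the 2-fold rule but similar in size to the medians of several lists of short genes. Among these lists, the mitochondrial ribosomal protein genes had -0.28 in kfc1 at 12 h and -0.19 in kfc1 at 0 h. In wild type at 12 h they had -0.38. The part of gene length in those medians was not tested.

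Genes of nitrogen catabolite repression had more members called higher than any other list. These genes import and break down poorer nitrogen sources, and GATA-type transcription factors control them according to nitrogen supply. In kfc1 at 12 h, 12 of 29 were higher with RIM4 and 0 were lower, with a median difference of 0.90 and 27 of 29 above 0, against 2.06% higher and a median of 0.00 over all genes. All 12 were single-copy.

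The promoters of the 2 highest members with a GATAAG match are shown, since GATA factors bind that motif. Each stretch is from the R64 assembly (RefSeq), with the match in capitals, read on the gene's strand. CTTATC is GATAAG on the opposite strand.
DAL4, chrIX:408168-408272, plus strand: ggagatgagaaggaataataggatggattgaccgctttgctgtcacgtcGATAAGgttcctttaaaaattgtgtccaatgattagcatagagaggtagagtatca
DAL5, chrX:719445-719550, plus strand: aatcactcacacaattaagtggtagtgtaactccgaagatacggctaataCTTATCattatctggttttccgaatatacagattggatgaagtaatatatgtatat
The matches begin 251 and 171 bases before the start codons. GATAAG, on either strand, was found within 300 bases of the start codon in 16 of 30 listed genes (53.3%), against 880 of 5982 genes in all (14.7%). Of the 12 higher members, 8 had one and 4 did not, DUR3 among the latter. As GATA factors control the listed genes, the share of the list is not a result about RIM4.

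DAL4, the allantoin permease gene, had levels of 3.04 with IME1 and 5.12 with IME1 and RIM4 in kfc1, a difference of 2.08. DUR3, which encodes a urea transporter, went from 2.59 to 4.66 (2.06), and the allantoate permease gene DAL5 from 2.28 to 4.28 (2.00). The proline oxidase gene PUT1 was below its starting level with IME1, at -0.96, and at 0.95 with RIM4 added (1.92). DUR12, the urea amidolyase gene, had a difference of 1.69. The 7 other higher members were DAL7 (1.67), DCG1 (1.36), DAL80 (1.28), UGA4 (1.26), MEP2 (1.25), DAL1 (1.13) and GAP1 (1.08). DAL80 was named through its place in the list of GATA factors and nitrogen regulators. The rest of the 7 lie outside the rule for named genes and were picked after their values were seen. MEP2, the high-affinity ammonium permease gene, reached a level of 7.05 with RIM4, from 5.80 with IME1. UGA4 encodes a permease for gamma-aminobutyrate and GAP1 the general amino acid permease.

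Genes for the GATA factors were examined beside their targets. The activator gene GAT1 went from 2.78 to 3.88 (1.10), and the repressor gene DAL80, which is itself a target, from 5.46 to 6.74. GZF3, a second GATA repressor gene, had a difference of 0.90 and missed the 2-fold rule. Over the 7 genes of the list of GATA factors and nitrogen regulators, 2 were higher, 0 were lower, and the median was 0.42. DAL82, at -0.45, was the 1 member below 0. Over all genes 2.06% were higher and 2.72% lower. DAL80 counts among the higher members of the nitrogen list too, so the 2 lists are not separate.

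At 0 h none of these genes passed the rule. The nitrogen list had 0 members higher and 0 lower of 29, with a median of -0.18, against a background of 0.277% higher and 2.25% lower over all 6501 genes. After 12 h in the arm with both genes, the median level of the list was 2.55, then 1.84 at 24 h and 0.64 at 48 h. DAL5 followed that course, with 4.28, 2.18 and 0.92. DAL4 stayed higher for longer, at 4.51 at 24 h and 2.50 at 48 h. There was no column with IME1 alone at those times, so the later values have no partner.

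**Figure D2:**
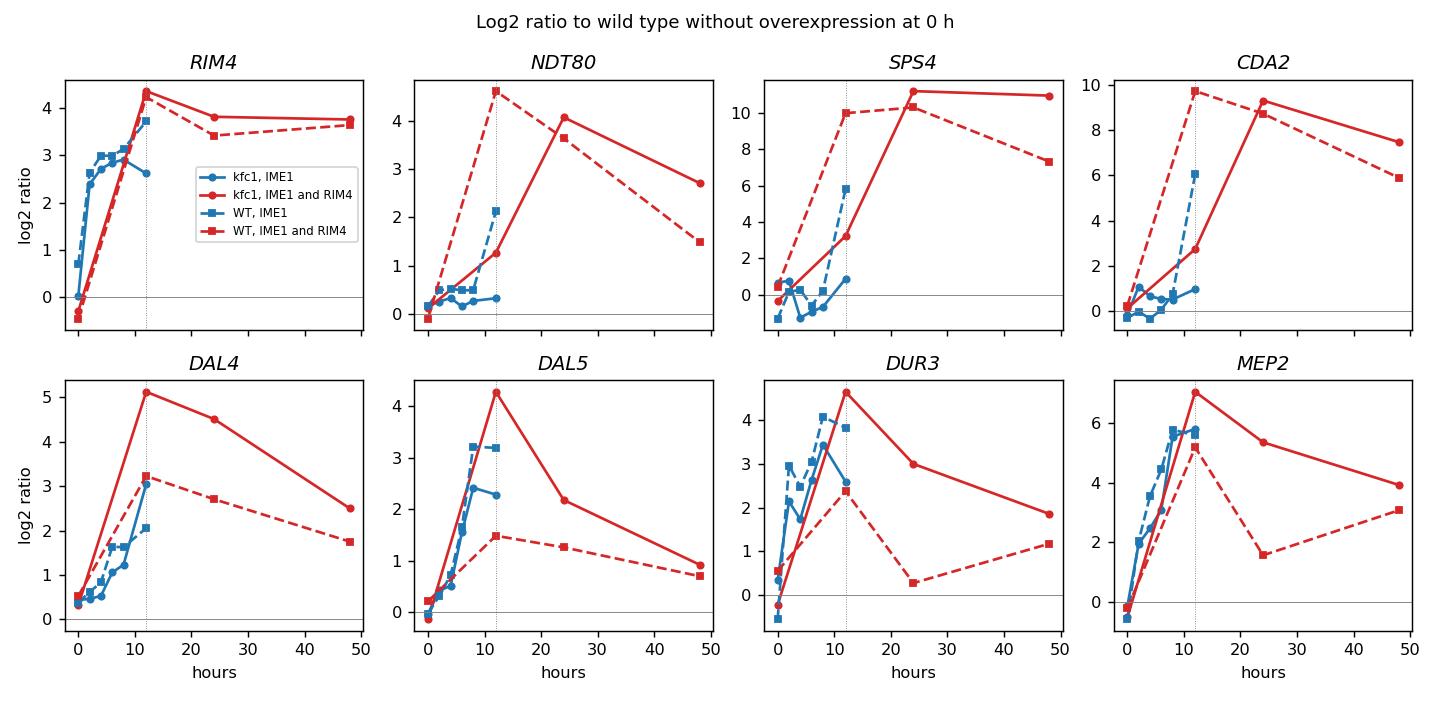
Log2 ratio to wild type without overexpression at 0 h (y) against hours (x) for 8 genes, with 1 point per group. Solid lines with circles are kfc1 and dashed lines with squares wild type, blue is IME1 and red is IME1 with RIM4, and a dotted line marks 12 h. In kfc1 the upper row (RIM4, NDT80, SPS4, CDA2) shows NDT80 at 1.26 at 12 h and 4.07 at 24 h, and the lower row shows DAL4 and DAL5 highest at 12 h.

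In wild type the nitrogen list did not stand higher with RIM4. It had 2 of 29 higher and 7 lower, with a median of -0.40, where 8.98% of 6511 genes were higher and 5.97% lower. DAL5 went from 3.19 to 1.48 (-1.71), DUR3 from 3.83 to 2.37 (-1.46) and PUT1 from -0.86 to -2.97 (-2.11). DAL4 alone among the 5 named members was higher in wild type too, at 2.05 and 3.23 (1.17). The kfc1 difference exceeded the wild-type difference by at least 1 log2 unit for 19 of 29 members and fell short by as much for 0, where 5.8% and 9.36% of 6504 genes did so.

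Some sporulation genes were higher in kfc1 with RIM4. The 6 lists of genes for the meiotic divisions, the prospore membrane, the Smk1 and Sps1 kinases, the sporulation septins, the spore wall and the dityrosine layer held 62 genes. Of these 7 were higher and 0 lower, with a median difference of 0.32 and 48 of 62 above 0, against 2.06% higher over all genes. The comparison in wild type gave 50 of 62 higher and a median of 2.42, against 8.98% over all genes. The kfc1 difference fell short of the wild-type difference by at least 1 log2 unit for 51 of them.

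The 2 highest members with a middle sporulation element have the following stretches in front of the gene, in R64 (RefSeq) and on the gene's strand, with the match to GNCACAAA in capitals.
SPS4, chrXV:903009-903116, minus strand: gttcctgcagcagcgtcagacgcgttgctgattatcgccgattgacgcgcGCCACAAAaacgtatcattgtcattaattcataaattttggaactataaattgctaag
SPO19, chrXVI:304173-304280, plus strand: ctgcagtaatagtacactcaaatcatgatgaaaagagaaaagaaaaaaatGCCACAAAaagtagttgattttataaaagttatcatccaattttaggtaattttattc
The matches begin 192 and 164 bases before the start codons. GNCACAAA, searched on both strands, was present in 27 of the 62 sporulation windows of 300 bases (43.5%) and in 247 of 5982 windows in all (4.13%). It was in 0 of 30 windows of the nitrogen list, and GATAAG was in 6 of the 62 sporulation windows. Of the 7 higher sporulation genes 5 had a match, namely SPS4, SPO19, CDA2, SPO74 and SPO77. A match is a run of letters, not evidence that a factor was bound, and the shares of the lists are not results about RIM4.

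SPS4, a late sporulation gene, had levels of 0.87 with IME1 and 3.22 with RIM4 added, a difference of 2.35. SPO19, which encodes a protein of the prospore membrane, went from 1.63 to 3.41 (1.78), and the chitin deacetylase gene CDA2, needed for the chitosan layer of the spore wall, from 0.98 to 2.75 (1.77). SPO74, a component of the meiotic outer plaque, had a difference of 1.60. SPO77, which acts in spore wall formation, had 1.49, IRC10 had 1.32 and ADY3, found at the edge of the growing prospore membrane, had 1.25.

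Several middle genes lay below the rule or near 0 in kfc1. OSW1 had a difference of 0.94, SPS1 of 0.90, GIP1 of 0.83 and SMK1 of 0.00. None of the 10 genes for cyclins, Cdc5 and activators of the anaphase-promoting complex was higher (0 of 10, median 0.27), against 10 of 10 in wild type (median 2.19). Over all genes 2.06% were higher in kfc1 and 8.98% in wild type, so the 0 of 10 in kfc1 is near the share there. CDC5, the polo kinase gene, went from 0.40 to 0.87 in kfc1 and from 2.04 to 4.89 in wild type. CLB3, the cyclin gene named above as a target of Rim4, had a difference of 0.24 in kfc1 and 1.84 in wild type.

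NDT80 stood between these groups. Its level in kfc1 was 0.32 with IME1 and 1.26 with RIM4, a difference of 0.94 that missed the 2-fold rule. In wild type it was 2.12 and 4.61. In kfc1 with both genes NDT80 was at 4.07 at 24 h and 2.71 at 48 h. The sporulation lists had a median level of 1.17 at 12 h, 3.79 at 24 h and 2.59 at 48 h in that arm, and SPS4 was at 3.22, 11.21 and 10.96. In wild type with both genes the median of the lists was already 3.97 at 12 h.

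Early meiotic genes differed little. IME1 was at 3.72 with IME1 alone and at 3.83 with both in kfc1, and IME2 at 4.97 and 5.24. Over the 5 lists of recombination and meiosis I genes, 1 of 50 was higher and 0 were lower, with a median of 0.09, close to the 2.06% higher over all genes. The gene that was higher was MAM1, which encodes a monopolin subunit (2.30 to 3.39, 1.09). The early recombination genes SPO11 (0.56) and DMC1 (-0.63) lay on either side of 0. The median level of these genes was 3.17 with IME1 and 3.21 with both, so they were well above their starting level in each arm. In wild type 5 of 50 were higher, with a median of 0.44, close to the 8.98% there. Genes of the methylation complex were near 0, with differences of -0.17 for IME4, its catalytic subunit, 0.00 for MUM2, -0.04 for SLZ1 and -0.07 for KAR4. RME1, a repressor of IME1, was at 1.37 and 0.82 (-0.55), and the reader gene PHO92 at 5.88 and 5.56 (-0.33).

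Other genes among the 12 highest belong to no list used here or to lists with few calls. PTR2, the di- and tripeptide transporter gene, had the largest difference of any annotated gene, 2.70, from 0.66 to 3.36. At 0 h its difference was -2.55, and in wild type at 12 h it was 0.30. YGL138C had 2.53 and LDS1, which encodes a protein of lipid droplets at the spore wall, had 2.25. Both were higher in wild type as well (3.62 and 3.58). YLR412C-A (1.92), TOH1 (1.89, or 0.86 with IME1 at 8 h as the partner) and SMP1, a transcription factor gene (1.82), were not, with -0.30, -1.60 and -0.22 there.

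Transport and cell wall genes gave single calls. Of 16 genes for iron and copper uptake 2 were higher and 0 lower (median 0.33), where 2.06% of all genes were higher. They were the copper transporter gene CTR1 (-3.47 to -2.17, 1.29) and the ferric reductase gene FRE3 (1.14). With IME1 at 8 h as the partner the CTR1 difference was -0.0056 and that of FRE3 was 0.06. In wild type 8 of the 16 were lower, against 5.97% of all genes. HXT14, a member of the hexose transporter family, was the 1 higher gene of 18 in its list (1.55 to 3.19, 1.64), while the 3 lower members were the repeated genes HXT15, HXT7 and HXT6. UTR2, a cell wall enzyme gene, was the 1 higher of 24 cell wall genes (1.37, or 0.79 with IME1 at 8 h as the partner).

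Some stress and acetate genes were lower with RIM4, single-copy members among them. Of 30 genes of the general stress response and stationary phase, 7 were lower and 0 higher, with a median of -0.72 and 4 of 30 above 0, against 2.72% lower over all genes. At 0 h their median was 0.36. GRE1, which encodes a small hydrophilic stress protein, had the lowest difference of any single-copy gene, from -3.29 with IME1 to -6.03 with RIM4 (-2.75). SIP18, a protein of the same kind, had -1.54, YGP1 -1.32 and RGI2 -1.30. ALD3 had -1.07 but 40.4% of its sequence is repeated, so 6 of the 7 were single-copy, of 27 such members. DDR2 (-1.02) and SPG4 (-1.01) lie at the rule itself and were picked after their values were seen. With IME1 at 8 h as the partner RGI2 was at 0.61, and ALD3 (-0.50), DDR2 (-0.47) and SPG4 (-0.48) did not reach the rule. Several of these genes are short, and SIP18 runs only from 611016 to 611255 on chromosome XIII. In wild type at 12 h the 30 genes were mixed, with 5 higher and 4 lower (median -0.34), where 8.98% of all genes were higher and 5.97% lower.

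Of 17 genes for acetate use, the glyoxylate cycle and gluconeogenesis, 2 were lower and 0 were above 0 (median -0.56), where 2.72% of all genes and 0.57% of single-copy genes were lower. The glyoxylate cycle genes MLS1 (malate synthase) and ICL1 (isocitrate lyase) had levels of -3.04 and -3.66 with IME1, and of -4.61 and -4.89 with RIM4, differences of -1.57 and -1.23. ICL1 was at -0.81 with IME1 at 8 h and at -0.49 with both at 24 h, so its low levels were at 12 h in both arms. The other single-copy genes among the 12 lowest of that class were chosen after the repeats were seen. They were OM45 (-1.39), ATO2, an acetate and ammonium exporter gene (-1.35, or -0.61 with IME1 at 8 h as the partner), SEO1 (-1.34), TKL2, a transketolase gene (-1.31), and GDH3, a glutamate dehydrogenase gene (-1.26). In wild type at 12 h, 2 of the 17 acetate genes were higher and 3 lower (median -0.20), against 8.98% and 5.97% of all genes.

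**Figure D3:**
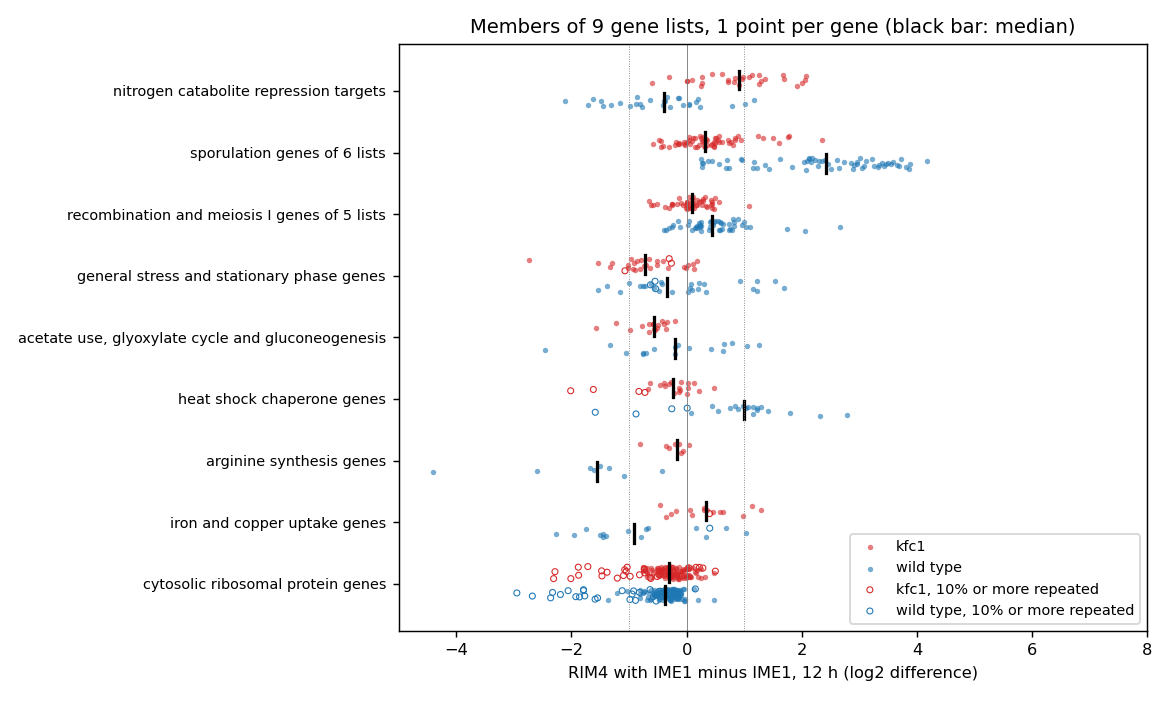
RIM4 difference at 12 h (x, log2 units) for members of 9 gene lists (y), with kfc1 in red and wild type in blue, 1 point per gene, and black bars at list medians. Open circles are genes with at least 10% repeated sequence. The nitrogen list has medians of 0.90 in kfc1 and -0.40 in wild type, the sporulation lists 0.32 and 2.42, and the lower ribosomal protein genes of kfc1 are all open circles.

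The wild-type comparison was larger in count. There 585 genes were higher and 389 lower, of which 511 (9.11%) and 208 (3.71%) were single-copy. Of the 100 single-copy genes higher in kfc1, 37 were also higher in wild type (37% of the kfc1 list and 7.24% of the wild-type list) and 14 were lower. Of the 32 lower, 5 were also lower and 3 were higher. At 0 h, the 99 of those 100 genes with a value had a median difference of -0.18 in kfc1, with 1 higher and 3 lower.

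Arginine synthesis genes were lower in wild type and not called in kfc1. In kfc1, 0 of 8 arginine synthesis genes passed the rule (median -0.17), whereas in wild type 7 of 8 were lower (median -1.56), against 5.97% of all genes. Of 11 genes for leucine and branched-chain synthesis 0 passed the rule in kfc1, and 3 were higher and 0 lower in wild type, against 8.98% higher there. URA3 and LEU2 had values in wild type with IME1 and not with both. Marker genes and RIM4 thus cannot be told apart in these wild-type differences. ARG1, the argininosuccinate synthase gene, was at 1.88 and 1.53 in kfc1, and at 5.01 and 0.60 in wild type. The difference between the genotypes for ARG1 was 4.06, the second largest by the rule for named genes, and it came mostly from the wild-type pair. DIP5, an amino acid permease gene, had 5.08, from -0.05 and 1.50 in kfc1 and 1.47 and -2.06 in wild type. With IME1 at 8 h as the partner its kfc1 difference was 0.44, and at 0 h the kfc1 difference was already 0.91. The zinc transporter gene ZRT1 had 3.84, with 0.35 in kfc1 and -3.49 in wild type. At the other end PFS1 (-4.39), PIR5 (-3.70) and SPS18 (-3.61) differed by -0.35, -0.13 and -0.49 in kfc1, and by 3.12 or more in wild type.

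Markers of other cells were examined in the same columns. Of 23 haploid-specific and mating genes 0 were higher and 0 lower in kfc1, with a median difference of 0.23, at median levels of 1.29 and 1.42. The G1 cyclin and budding list had a median difference of 0.26 over 12 genes and the daughter cell separation list 0.14 over 10, with 0 calls in each. As the table holds ratios, no absolute level of these markers can be given, and their part in the results was not tested. Replication genes (-0.01 over 24), proteasome genes (0.11 over 34), autophagy genes (0.03 over 37) and ribosome assembly genes (0.02 over 56) likewise had 0 members past the rule. Over all single-copy genes only 1.78% were higher and 0.57% lower. The 0 calls in lists of these sizes are thus not read as a result.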

How the data were processed

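The deposited table held log2 ratios made by the authors, 1 column for each of 32 groups with the 2 replicates combined, for 6660 genes, without 4 empty lines. Base 2 was assumed for the logarithm, which the header does not state. BWA, DESeq2 and sacCer3 appear in the submitters' processing notes, without their roles; the counting, the annotation and whether ratios were shrunken are not given in the sources used. The 5 kfc1 columns without overexpression after 0 h were read as ratios to kfc1 at 0 h, since VIR1 stood between 0.00 and 1.03 there against -5.73 at 0 h. The 0 h value was added, and these columns enter only the medians of repeated genes.

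Differences were taken between columns in Python 3.11.15 (pandas 2.3.3, numpy 2.4.6), and a gene was called at an absolute log2 difference of at least 1. No replicate values were given, so no test was run in place of the linear model that had been planned for them. Symbols and coordinates came from RefSeq R64, the assembly behind sacCer3, with 5986 identifiers matched and 674 not. Of these 5986, 263 genes were repeated and 5613 single-copy, by their 50-base stretches on either strand. Of 160 genes blank in wild type without overexpression, 11 to 28 had a value in each of the 6 columns compared. Of those values 0 were negative. In the 2 main columns 25 and 19 of the genes had a value, the smallest being 0.21 and 0.17. Values of genes with few reads thus cannot be compared strictly.

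Gene lists (43) and comparisons (5) were chosen with earlier results of these data known. Named genes were the 12 highest and 12 lowest, up to 5 members of each list with the largest absolute differences, the 8 highest and 8 lowest differences between genotypes, 11 meiotic regulators and the marker genes, and the text says where others were added. The first rule used RefSeq genes that shared no exact value with another gene. Alternatives were centred columns, RefSeq genes only, genes with shared or blank values left out, another partner time and, chosen after the data were seen, single-copy genes only.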

Additional observations from a re-analysis of the deposited data

Results flagged for a closer look

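In 17 single-copy genes the RIM4 difference at 12 h passed the 2-fold rule in opposite directions in the 2 genotypes. These differences between genotypes were not tested, since the table holds 1 value per group. Of the 2 wild-type arms compared, only that with IME1 alone was marked as re-used and had values for URA3 and LEU2. In 14 genes RIM4 went with a higher level in kfc1 and a lower one in wild type. The kfc1 difference minus the wild-type difference was 5.08 log2 units for DIP5, 4.03 for PUT1, 3.81 for MNC1, 3.70 for DAL5, 3.52 for DUR3 and 3.49 for TOH1. It was 3.27 for YNR075C-A, 3.05 for NCW2, 2.69 for IRC7, 2.52 for CPS1, 2.42 for COM2, 2.33 for YLR342W-A, 2.06 for GYP7 and 2.05 for CHS1. The 3 genes lower in kfc1 and higher in wild type were RGI2 (-2.99), FMP16 (-2.52) and TPO1 (-2.45). With kfc1 and IME1 at 8 h as the partner, 9 of the 17 kfc1 differences no longer held. The sign turned for TPO1 (-1.16 to 1.36), RGI2 (-1.30 to 0.61) and COM2 (1.08 to -0.14). FMP16 (-0.25), DIP5 (0.44), YNR075C-A (0.54), TOH1 (0.86), MNC1 (0.87) and CPS1 (0.96) fell short of the rule. The other 8, among them DUR3 (1.21), DAL5 (1.86) and PUT1 (1.93), still passed it. With the 0 h difference taken off, the kfc1 differences of DIP5 (0.64), CPS1 (0.68), GYP7 (0.55), CHS1 (0.81) and TPO1 (-0.58) fell short of the rule. The rest of the 17 passed it after that subtraction. DIP5, PUT1, DAL5 and DUR3 import or break down nitrogen compounds, CPS1 encodes a vacuolar carboxypeptidase, CHS1 a chitin synthase and TPO1 a polyamine transporter.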

How the results depend on the processing

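No paired analysis was possible because the table holds 1 combined value per group, and for the same reason no replicate could be left out. With columns centred on their medians (-0.03 to 0.01), with RefSeq genes only, and with genes of shared or blank values left out, each count of genes over the table stayed within 1.5 times the count given. With single-copy genes only, the lower count was 32 in place of 177 in kfc1 at 12 h, 208 in place of 389 in wild type and 32 in place of 146 in kfc1 at 0 h. With kfc1 and IME1 at 8 h as the partner, 466 genes were higher and 581 lower in kfc1. There the nitrogen list had 16 higher members in place of 12, the sporulation lists 27 in place of 7, the recombination and meiosis I lists 12 in place of 1, and 131 ribosomal protein genes were lower in place of 14. In that setting 4 named genes changed sign, RGI2 (0.61), TPO1 (1.36), COM2 (-0.14) and CTR1 (-0.0056), and 16 others no longer passed the rule. With centred columns GYP7 (0.98) and CHS1 (0.99) just missed it. That partner differs in time as well as in RIM4, and the cause was not tested. Depth is unknown, so no limit from it can be given.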
